A study of Capra hircus with 2 samples.

Results

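The myosin heavy chains were followed in longissimus thoracis, a muscle along the back, of Chinese Xuhuai goats (Capra hircus). The 6 chains were taken by RefSeq accession, out of 11663 accessions with reads in either library. Their names are those of the cattle transcripts that carry these accessions: MYH3 (NM_001101835), MYH1 (NM_174117), MYH2 (NM_001166227), MYH7 (NM_174727), MYH10 (NM_174834) and MYH11 (NM_001102127). The deposited files give accessions without symbols, and a list of goat RefSeq genes (assembly ARS1.2) held 0 of the 11663 accessions. No genomic position is therefore given, and levels of other heavy chains, such as the neonatal chain MYH8 or the fast chain MYH4, were not analysed here. The fetal library came from fetuses at gestation day 90 (gestation lasts 150 days), taken from slaughtered goats at an abattoir. The other library came from goat muscle at an age of 6 months. No genotype or treatment is given for either stage, and the sampling text of the older muscle repeats that of the fetus. How many animals went into a library, and of which sex, is likewise not stated by the labels. Each stage had 1 library, so no test across animals was possible, no p-value is given, and intervals cover counting error only. Differences are between these libraries.

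Myosin heavy chains are the motor proteins of the thick filament. A globular head binds actin and splits ATP, and a long coiled-coil tail packs into the filament, so the isoform in a fibre is a main determinant of how fast that fibre shortens. In mammals the embryonic chain MYH3 marks developing fibres, MYH7 is the chain of slow, oxidative fibres, and MYH2 and MYH1 are the chains of fast type 2A and type 2X fibres. MYH10, a non-muscle myosin II, serves cell shape, adhesion and division in many cell types, and MYH11 is the chain of smooth muscle, found in vessel walls. Both lie outside the mature sarcomere, so MYH1, MYH2, MYH3 and MYH7 are called the 4 sarcomeric chains below.

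All 6 chains had reads in both libraries, out of 12811117 unique reads in the fetal library and 9144138 in the 6-month library. Levels are given as RPKM, reads normalised to transcript length and library total, with an exact Poisson 95% interval. Within the family, MYH3 had the highest level in the fetal library, with MYH7 next, whereas MYH1, MYH2 and MYH7 had the highest levels at 6 months and MYH3 was low. Differences between libraries are on the log2(RPKM + 1) scale, fetal minus 6 months, and a chain was called higher in a library at a difference of at least 1, about 2-fold. By that rule 2 of the 6 chains, MYH3 and MYH10, were higher in the fetal library, against a background of 35.1% of all 9705 accessions compared. The other 4 chains, MYH1, MYH2, MYH7 and MYH11, were higher at 6 months, against a background of 9.46%. On the deposited scale with a minimum difference of 2, the fetal calls were again MYH3 and MYH10, against a background of 10.8%. The 6-month calls were then MYH1, MYH2 and MYH7, against 3.49%. All values were also centred on the median ratio of the libraries. At a minimum difference of 1, the 2 and 4 chains called were those of the deposited scale, with backgrounds of 22.3% and 17.2%. The centred difference of MYH10 was 1.63, below 2, and that of MYH11 was -2.36. The median difference was -2.09 over the 6 chains and 0.61 over all accessions compared.

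**Figure D1:**
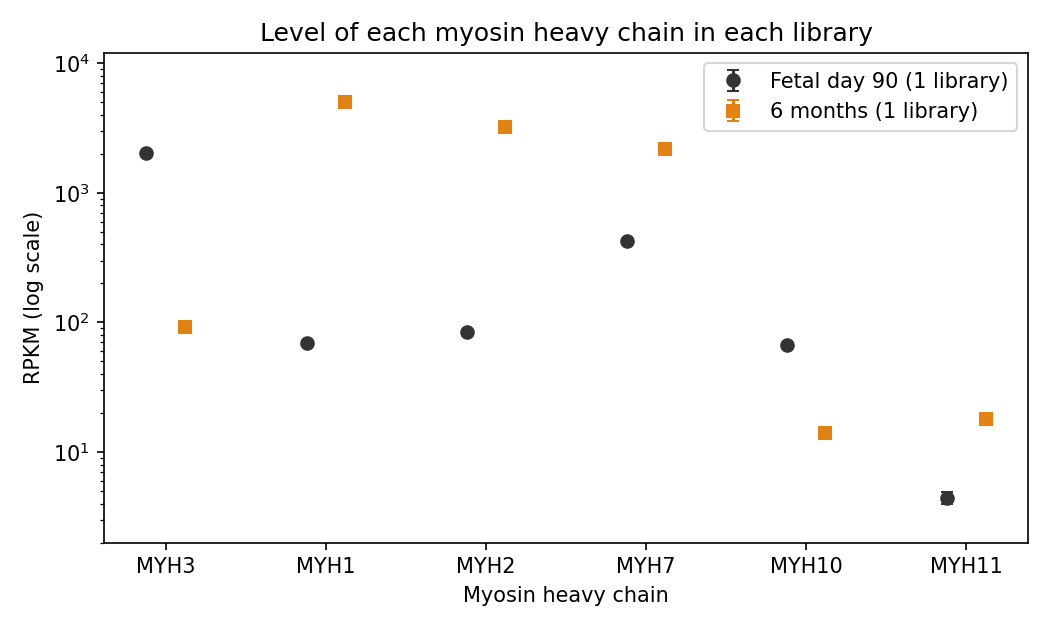
RPKM (log scale) of each myosin heavy chain in the fetal library (circles) and the 6-month library (squares), with exact Poisson 95% intervals, mostly smaller than the symbols. MYH3 went from 2020 to 92.7, MYH1 went from 69.4 to 5012, and MYH11 was the lowest chain in the fetal library at 4.44.

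The embryonic chain MYH3 had 158793 reads in the fetal library and 5203 reads at 6 months. Its level was an RPKM of 2020 (interval 2010 to 2030) in the fetal library and 92.7 (90.2 to 95.3) at 6 months. MYH3 was thus high in the fetal library and low at 6 months. As a share of its library's reads, MYH3 was 21.8-fold higher in the fetus (exact conditional binomial 95% interval 21.2 to 22.4), a difference of 4.43 log2 units. Counting MYH3 itself, 52 accessions, or 0.54% of those compared, had a difference toward the fetal library at least as large. By read number MYH3 ranked 4 among fetal accessions and 211 at 6 months. At 6 months its RPKM was above that of MYH2 or MYH1 in the fetal library, though all of these low levels are uncertain, as described below.

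The fast 2X chain MYH1 had 5323 reads in the fetal library and 274362 reads at 6 months. Its RPKM was 69.4 (67.5 to 71.3) in the fetal library and 5012 (4993 to 5030) at 6 months. The level of MYH1 was the highest of the family at 6 months, and by read number it ranked 3 among all accessions there. As a share of reads, MYH1 was 72.2-fold higher in the older muscle (70.3 to 74.2), a difference of -6.15 log2 units. The low fetal level behind this fold is uncertain, beyond counting error, as described below. Including MYH1, 9 accessions (0.093%) lay at least as far toward 6 months.

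The fast 2A chain MYH2 had 6615 reads in the fetal library and 180673 reads at 6 months. Its RPKM was 84.7 (82.7 to 86.8) in the fetal library and 3241 (3226 to 3256) at 6 months. MYH2 was low in the fetal library, where its level is uncertain like that of MYH1, and the second chain of the family at 6 months. The share of reads on MYH2 was 38.3-fold higher in the older muscle (37.3 to 39.2), a difference of -5.24 log2 units, and 14 accessions (0.14%), itself included, lay at least as far in that direction.

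The slow chain MYH7 had 32093 reads in the fetal library and 119202 reads at 6 months. Its RPKM was 422 (418 to 427) in the fetal library and 2198 (2186 to 2211) at 6 months. The fetal level of MYH7 was above the lower level of each other sarcomeric chain. The share of reads on MYH7 was 5.20-fold higher in the older muscle (5.14 to 5.27), a difference of -2.38 log2 units. This was the smallest difference among the sarcomeric chains, and 226 accessions (2.33%), MYH7 included, lay at least as far toward 6 months.

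**Figure D2:**
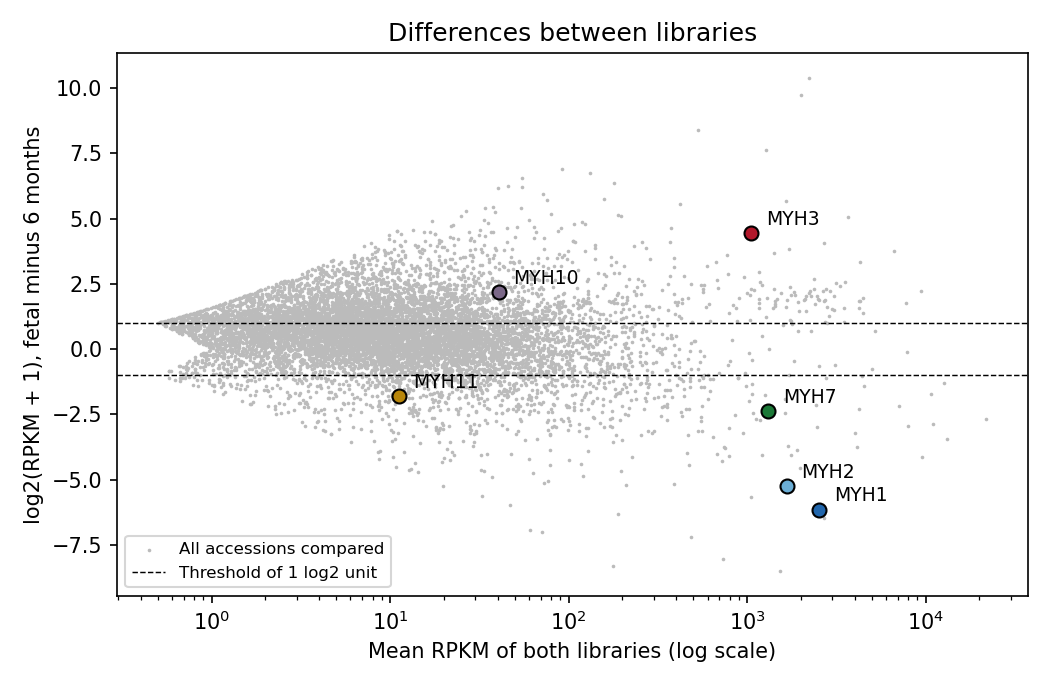
Difference of log2(RPKM + 1), fetal minus 6 months, against the mean RPKM of both libraries (log scale) for the 9705 accessions compared (grey) and the 6 chains (coloured), with the threshold of 1 as dashed lines. MYH1 at -6.15 and MYH2 at -5.24 lie near the lower edge of all accessions, MYH3 at 4.43 lies high among the abundant ones, and MYH10 and MYH11 lie closer to the bulk.

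The non-muscle chain MYH10 had 5386 reads in the fetal library and 808 reads at 6 months. Its RPKM was 67.0 (65.2 to 68.8) in the fetal library and 14.1 (13.1 to 15.1) at 6 months. MYH10 was the chain other than MYH3 that was higher in the fetal library. The share of reads on MYH10 was 4.76-fold higher there (4.42 to 5.13), a difference of 2.17 log2 units, and 826 accessions (8.51%) differed at least as far toward the fetal library. In whole muscle, fewer cells of a type and less RNA per cell cannot be told apart, which applies to every chain described here.

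The smooth muscle chain MYH11 had 376 reads in the fetal library and 1088 reads at 6 months. Its RPKM was 4.44 (4.001 to 4.91) in the fetal library and 18.0 (16.9 to 19.1) at 6 months. MYH11 was the lowest chain in the fetal library and rested on the fewest reads. The share of reads on MYH11 was 4.05-fold higher in the older muscle (3.60 to 4.57), a difference of -1.80 log2 units, and 407 accessions (4.19%) lay at least as far in that direction.

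Ordered by RPKM, the fetal library ran MYH3, MYH7, MYH2, MYH1, MYH10 and MYH11. The intervals of MYH1 and MYH10 (67.5 to 71.3 and 65.2 to 68.8) overlapped there, which does not decide whether these chains differed. The other neighbours had separate intervals. At 6 months the order was MYH1, MYH2, MYH7, MYH3, MYH11 and MYH10, with separate intervals for all neighbours. The order of MYH2 and MYH1, and that of MYH10 and MYH11, were thus opposite in the libraries, though the low fetal levels of MYH2 and MYH1 are uncertain. Among all accessions of each library, MYH3 ranked 85 and MYH7 ranked 189 by RPKM in the fetal library. At 6 months MYH1 ranked 17, MYH2 ranked 28, MYH7 ranked 38 and MYH3 ranked 721.

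The family, meaning these 6 chains and no other heavy chain, took a larger part of the 6-month library. The 6 chains had 208586 reads, or 1.63% of the fetal library (exact binomial 95% interval 1.62% to 1.64%), and 581336 reads, or 6.36% of the 6-month library (6.34% to 6.37%). Their summed RPKM was 2668 in the fetal library and 10576 in the 6-month library, a ratio of 3.96. The 3 sarcomeric chains other than MYH3 carried most of the family's RPKM at 6 months. Their summed RPKM was 577 in the fetal library and 10451 in the 6-month library, an 18.1-fold difference, while MYH3 went the other way. RPKM is relative to each library's total, and the values of most accessions leaned toward the fetus. After centring on the median ratio of all accessions, a shift of 0.58 log2 units, the family ratio was 5.92.

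Shares within the family do not depend on how the libraries are scaled to each other. How evenly goat reads matched the cattle transcripts of the chains, which shares and ratios between chains rely on, was not tested. MYH3 made up 75.7% of the summed RPKM of the 6 chains in the fetal library and 0.88% at 6 months. MYH1 went from 2.60% to 47.4%, and MYH2 went from 3.17% to 30.6%. The slow chain MYH7 had a similar share in both, 15.8% in the fetal library and 20.8% at 6 months. These 6 chains thus held mainly the embryonic chain in the fetal library and mainly both fast chains at 6 months. Heavy chains that were not analysed, such as MYH8 and MYH4, are missing from these totals. MYH10 went from 2.51% to 0.13%, and MYH11 had 0.17% in each library.

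**Figure D3:**
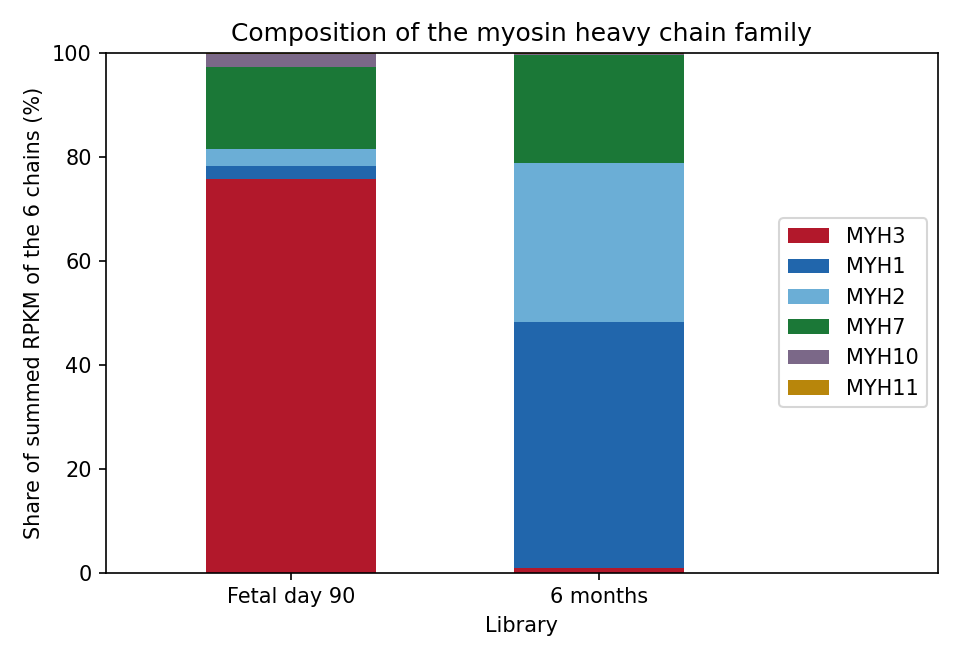
Share (%) of each chain in the summed RPKM of the 6 chains, stacked to 100% for each library. MYH3 fills 75.7% of the fetal bar and 0.88% of the 6-month bar, MYH1 and MYH2 fill 47.4% and 30.6% at 6 months, and MYH7 fills 15.8% and 20.8%.

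By reads in place of RPKM, MYH3 had 76.1% of the family's reads in the fetal library (exact binomial 95% interval 75.9% to 76.3%) and 0.90% (0.87% to 0.92%) at 6 months. MYH7 had 15.4% (15.2% to 15.5%) and 20.5% (20.4% to 20.6%), so its lesser difference in share was still larger than counting error. The read shares of MYH11, 0.180% (0.163% to 0.199%) and 0.187% (0.176% to 0.199%), had overlapping intervals. Transcript lengths ran from 5930 bases (MYH7) to 6612 bases (MYH11), so shares by reads and by RPKM were close.

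Among the 4 sarcomeric chains alone, both fast chains together made up 5.93% of the summed RPKM in the fetal library and 78.3% at 6 months. MYH7 made up 16.3% and 20.8%. With MYH3 left out as well, the slow chain MYH7 formed 73.3% of the 3 other sarcomeric chains in the fetal library and 21.0% at 6 months. The similar share of MYH7 in the family and its large drop among these 3 chains are views of the same values.

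Ratios between chains within a library showed the same shifts free of scaling. The RPKM ratio of MYH7 to MYH1 plus MYH2 was 2.74 in the fetal library and 0.27 in the older muscle, a 10.3-fold difference. MYH7 was 4.99-fold above MYH2 in the fetal library (exact binomial 95% interval 4.86 to 5.12), whereas its ratio to MYH2 was 0.68 at 6 months (0.67 to 0.68). The ratio of MYH7 to MYH1 was 6.09 (5.91 to 6.27) in the fetal library and 0.44 at 6 months. MYH7 thus exceeded MYH1 and MYH2 in the fetal library, where the levels of these fast chains are uncertain. MYH1 and MYH2 each exceeded MYH7 at 6 months.

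**Figure D4:**
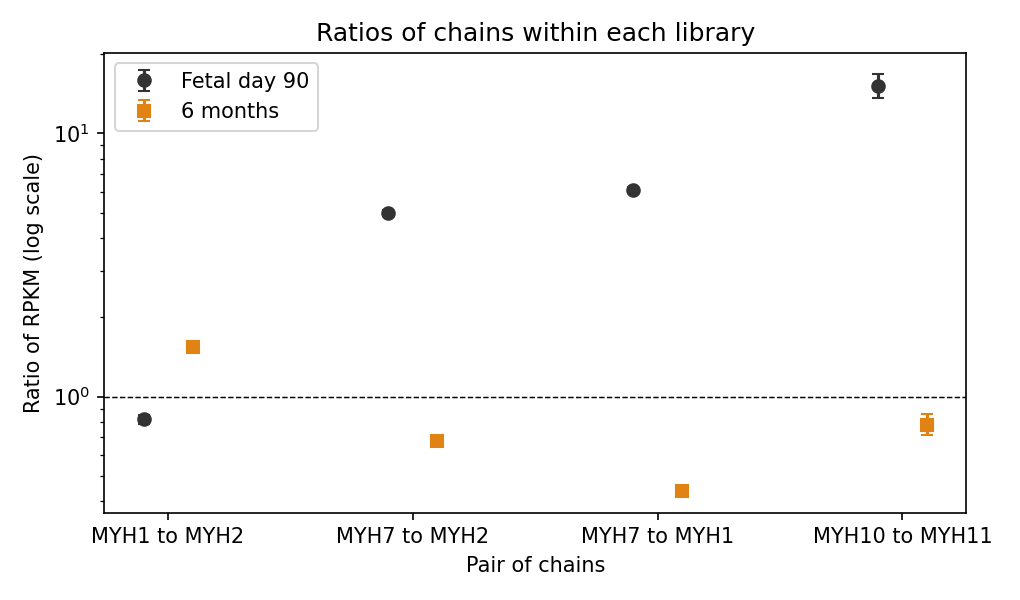
Ratio of RPKM (log scale) for 4 pairs of chains in the fetal library (circles) and at 6 months (squares), with exact binomial 95% intervals from the reads of each pair and a dashed line at equal levels. Each pair lies on opposite sides of that line in the libraries, for example MYH10 to MYH11 at 15.1 and 0.78.

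The fast chains also differed from each other. The ratio of 2X to 2A, MYH1 to MYH2, was 0.82 (0.79 to 0.85) in the fetal library and 1.55 (1.54 to 1.56) at 6 months. By these values MYH2 was the higher fast chain in the fetal library and MYH1 at 6 months, a shift of 1.89-fold in the ratio. The fetal levels of both are uncertain, since a part of reads from other heavy chains in them was not tested. MYH3 was 29.1-fold above MYH1 (28.3 to 29.9) and 23.9-fold above MYH2 (23.3 to 24.4) in the fetal library. At 6 months MYH1 was 54.0-fold (52.6 to 55.5) and MYH2 34.9-fold (34.0 to 35.9) above MYH3. The ratio of MYH3 to MYH7 was 4.78 in the fetal library, and at 6 months MYH7 was 23.7-fold above MYH3.

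The ratio of the non-muscle to the smooth muscle chain, MYH10 to MYH11, was 15.1 (13.6 to 16.8) in the fetal library and 0.78 (0.71 to 0.86) in the older muscle, a 19.3-fold difference. Together these chains formed 2.68% of the family's RPKM in the fetal library and 0.30% at 6 months. MYH10 was nearly level with MYH1 in the fetal library, at a ratio of fetal RPKM values of 67.0 to 69.4.

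The sarcomeric chains that were low in a library had more of their transcript without reads than MYH10 at a similar depth. Coverage is the deposited percentage of a transcript with at least some reads, and depth is given as read bases per transcript base, taking a read as 90 bases. MYH3 at 6 months had a depth of 76.3 and a coverage of 84.78%, which left 934 of its 6135 bases without reads. In the fetal library, at a depth of 2329, its coverage was 99.14% and 53 bases had none. MYH10 in the fetal library had nearly the same depth, 77.2, and a coverage of 98.55%, with 91 bases uncovered.

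The fast chains in the fetal library had gaps too, smaller than those of MYH3 at 6 months. MYH1 had a fetal depth of 80.0 and a coverage of 91.3%, against 99.8% at 6 months, and MYH2 had a fetal depth of 97.7 and a coverage of 92.73%, against 98.13%. MYH7 was covered to 98.13% and 98.21%. By contrast, MYH10 at 6 months reached 96.38% at a depth of 11.6, and MYH11 reached 92.73% in the fetal library at a depth of 5.12. Among the 19 accessions of at least 5000 bases with a depth of at least 50 at 6 months, median coverage was 96.7%, and 2 had a lower coverage than MYH3. Among the 53 such fetal accessions the median was 96.05%, and 7 lay below MYH1, 9 below MYH2 and 40 below MYH10, so MYH10 was itself covered better than most of these transcripts.

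Sarcomeric heavy chains are close paralogs, and the files call their reads unique without saying how reads that match several chains were treated. The low levels of MYH3 at 6 months and of MYH1 and MYH2 in the fetal library are therefore uncertain. Fold differences and ratios that rest on these levels are uncertain too, beyond their intervals. A part of reads from other heavy chains in these levels was not tested.

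**Figure D5:**
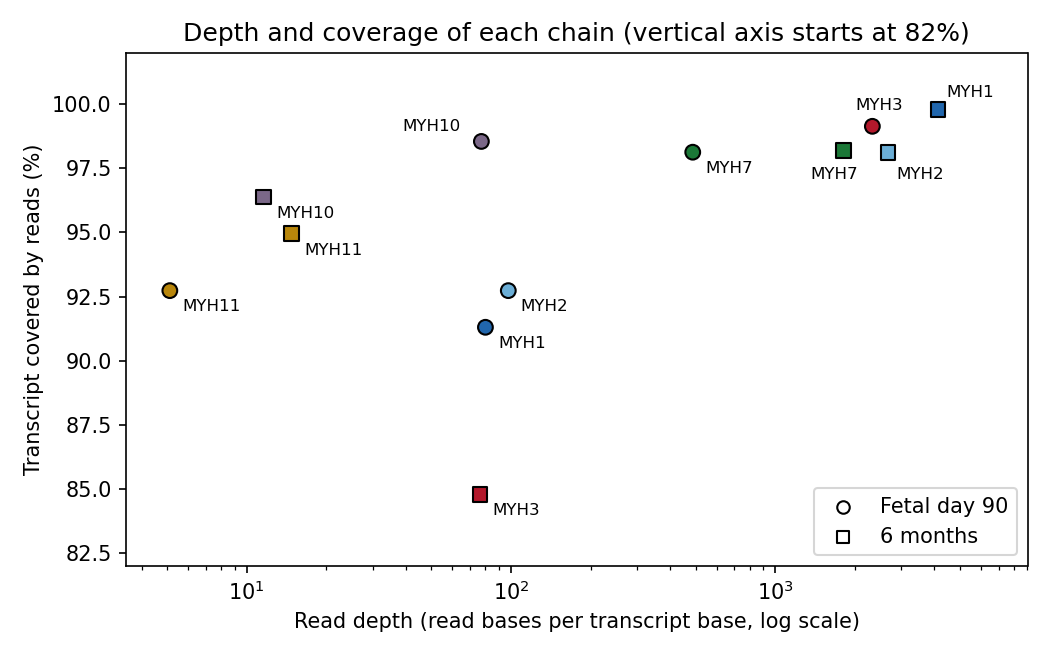
Percentage of each transcript covered by reads against read depth (read bases per transcript base, log scale) for the 6 chains in the fetal library (circles) and at 6 months (squares), on a vertical axis that does not start at 0. MYH3 at 6 months (84.78%) and MYH1 and MYH2 in the fetal library (91.3% and 92.73%) lie below MYH10 in the fetal library (98.55%) at depths of 76.3 to 97.7.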

How the data were processed

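Per the labels, RNA of 2 libraries, 1 per stage, was extracted with Trizol and sequenced on standard Illumina libraries. For each accession the authors deposited a count of unique reads, a length in bases, a coverage in percent of that length and an RPKM, per the file headers. Counts summed to 12811117 (fetal) and 9144138 (6 months), and the authors' RPKM could be recomputed from count, length and total. Aligner, counting rules, strand and build: not given in the sources used here. Members and lists were chosen with earlier results of these data known, and all 6 members are named. Lists of other heavy chains, thick filament genes and cell type markers could not be used without symbols, so other muscle markers were not checked.

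From the deposited values log2(RPKM + 1), fetal minus 6 months, was computed wherever one of the libraries reached an RPKM of 1, and called at a size of at least 1. Centring scaled the 6-month values. Intervals at 95% are exact (Poisson, Clopper-Pearson, conditional binomial), and since PCR duplicates are not separate molecules, they cover counting error only. Alternatives covered pseudocount, minimum, scaling, threshold and covered length. Computation used Python 3.11.15 with SciPy 1.17.1, NumPy 2.4.6, pandas 2.3.3 and, for figures, matplotlib 3.10.9.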

Additional observations from a re-analysis of the deposited data

How the results depend on the processing

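With 1 library per stage no library could be left out, and depth sets only the counting error. No paired analysis was possible because each stage has 1 library. The direction of all 6 chains held in all 10 alternatives, though those of minimum RPKM and threshold leave the differences unchanged and could not alter it. Each chain stayed past the threshold in every one, except that at a threshold of 2 log2 units 3 chains in place of 4 were called at 6 months, as MYH11 (-1.80) fell short on the deposited scale with a pseudocount of 1. Its difference was past 2 with centring on the median ratio (-2.36) or the trimmed mean ratio (-2.34) and with totals without the 50 most abundant accessions (-2.02). MYH10 (2.17 on the deposited scale) was below 2 with centring on the median ratio (1.63) or the trimmed mean ratio (1.64). It was also below 2 with totals without the 50 most abundant accessions (1.96) and with a pseudocount of 5 (1.92). MYH11 ranged from -2.36 to -1.28, MYH10 from 1.63 to 2.24, MYH3 from 3.86 to 4.44, MYH7 from -2.95 to -2.37, MYH2 from -5.82 to -5.16 and MYH1 from -6.73 to -6.03. The fetal share of MYH3 in the family was 76.1% by reads, 75.2% by covered length and 77.8% without MYH10 and MYH11, and in the sarcomeric total it was 78.3% by reads and 77.3% by covered length. The 6-month share of MYH1 was 47.2%, 46.9% and 47.5% in the family, and 47.3% by reads and 47.1% by covered length in the sarcomeric total. The family ratio, 6 months over fetal, was 4.06 without MYH10 and MYH11 and 5.92 with centring on the median ratio. With scalings added after the data were seen it was 5.85 (trimmed mean ratio), 4.27 (transcripts-per-total scaling) and 4.65 (totals without the 50 most abundant accessions).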
